A study of Mus musculus with 12 samples.

Results

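The 37 genes described here are interferon-stimulated genes, interferon regulatory factors and RNA sensors, together called interferon-stimulated genes or members below. Interferon-stimulated genes are those whose transcription rises when cells sense interferon, which need not hold for every regulatory factor in the set. The members were found by gene symbol among the 25232 genes listed for RNA of mouse epididymal white adipose tissue (eWAT, a visceral fat depot of males). The list of symbols was drawn up with earlier results of these data known. All 37 symbols were found, each with values of its own, and all 37 passed the filter on low values with 15597 genes in all. The 12 libraries came from C57BL/6 mice, 3 biological replicates in each of 4 groups: wild type on normal diet (ND_WT), the TET KO genotype (also labelled TKO) on normal diet (ND_TKO), wild type on high-fat diet (HFD_WT) and TET KO on high-fat diet (HFD_TKO). The series title places the loss of the TET proteins, enzymes that oxidise methylated cytosine in DNA, in adipocytes. The Cre driver, the deleted exons, the age of the mice and the length of the diet are not given in the sources used here. The RNA is from whole fat pads, so that fewer cells of a type and less RNA per cell cannot be told apart.

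Type I interferons signal through the receptor IFNAR1/IFNAR2 and the kinases JAK1 and TYK2, which lead to the assembly of the complex ISGF3, with STAT2 and IRF9 among its parts, on the interferon-stimulated response element (ISRE) in the promoters of its targets. Interferon gamma has its own receptor and acts through the gamma-activated site (GAS). The genes switched on in this way sense foreign nucleic acid, block the steps of virus growth, or feed back on the pathway, and in fat they can be expressed by adipocytes as well as by macrophages, lymphocytes and dendritic cells.

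Total reads per library lay between 20973140 and 25606629, so that the limit set by a count of 0 (3 reads) lay between 0.117 and 0.143 CPM (reads of a gene scaled to a common library total). Even the member with the fewest reads, Mx2, had 9 in its lowest library. Values are in CPM as deposited, not divided by gene length, so that levels are compared between libraries and never between genes. Cell type markers differed strongly between the groups. The summed CPM of 12 macrophage markers was 1024 to 1554 in ND_WT, 862 to 1180 in ND_TKO, 6557 to 7337 in HFD_WT and 1568 to 1786 in HFD_TKO, with no marker at 0 in all libraries. Adipocyte markers went the other way, and 9 of 11 were higher in HFD_TKO than in HFD_WT, against 15.2% of all tested genes. None of the 7 endothelial markers differed between the genotypes by the test on either diet.

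Replicate 3 of HFD_WT stood apart from its group for these genes. It was the highest of the 12 libraries in 33 of the 37 members, against 19.0% of all tested genes. Within HFD_WT it was the highest of 3 in 36 of 37 members (44.6% of tested genes), and it exceeded both other HFD_WT libraries by more than 1.5 times in 21 of 37 (4.75% of tested genes). That threshold was chosen after the values were seen. The ratio of its CPM to the mean of the other 2 ran from 1.0 for Irf8 to 3.09 for Oas3, with a median of 1.70 over the members and 1.02 over all tested genes. The same median was 1.0 over the macrophage markers, 0.923 over the adipocyte markers, 1.34 over the B and plasma cell markers and 1.79 over 11 T and NK cell markers. The summed T and NK marker CPM was 59.3, 23.8 and 76.2 in HFD_WT replicates 1 to 3, against 8.89 to 11 in HFD_TKO. Replicate 2 was thus the low one for these markers, and replicate 3 exceeded both others by more than 1.5 times in 3 of the 11. The B and plasma cell sum was 285, 75.3 and 284 in the same 3 HFD_WT libraries, so that replicate 2 was the low one there too. Whether these cells had a part in the levels below was not tested. For comparisons that involve HFD_WT, the counts called and medians over the 37 members are given with and without replicate 3. So is each called change of a member that lost its call or moved by over 1.5 times without it. Values of other gene lists, and of members split by promoter motif, are from all 12 libraries unless said otherwise. At the other end, replicate 3 of ND_TKO was the lowest of the 12 libraries in 22 of 37 members (15% of tested genes).

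**Figure D1:**
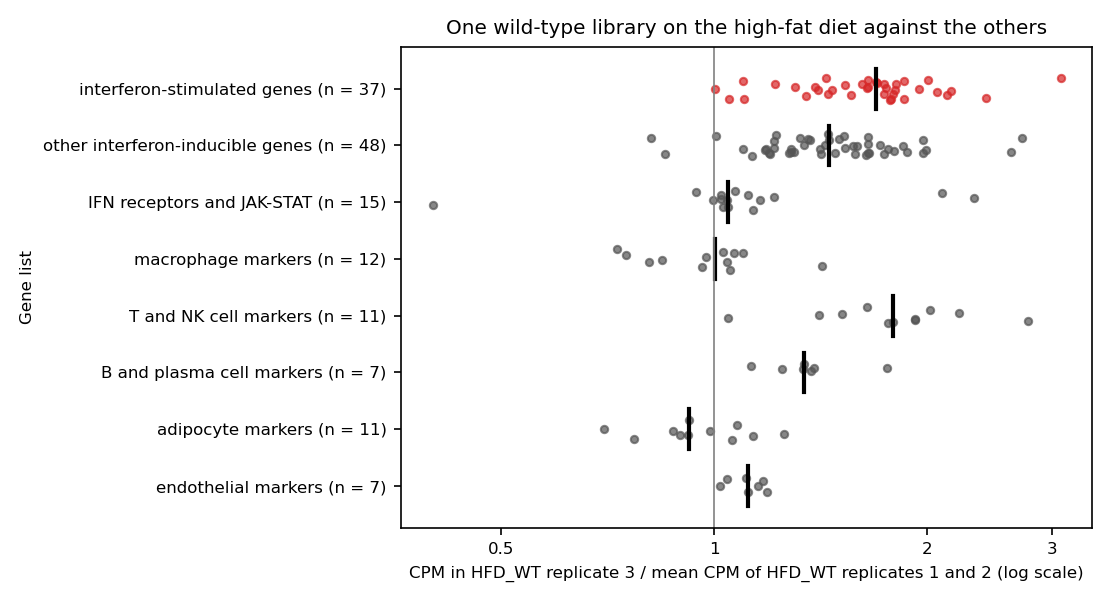
CPM in HFD_WT replicate 3 divided by the mean CPM of HFD_WT replicates 1 and 2 (log axis), 1 point per tested gene, for the 37 interferon-stimulated genes in red and 7 other gene lists in grey; the black bar is the median of each list. The members have a median of 1.70 and the macrophage markers one of 1.0.

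The promoters of the members were searched for the ISRE and GAS motifs named above. Windows from 250 bases before to 50 bases after a transcription start (RefSeq, GRCm38.p6) were matched for 29 of the 37 members; the 8 without one are Dhx58, Zbp1, Oas2, Usp18, Mx1, Mx2, Rtp4 and Parp14. The ISRE core, GAAA and GAAA with any 2 bases between them, occurred on either strand in 15 of the 29 members (51.7%), against 3.99% of all 27025 genes with a window. The GAS motif, TTC and GAA with any 3 bases between them, occurred on either strand in 11 of the 29 (37.9%), against 9.55% of all genes. A match is a run of letters, not a measured binding site, and neighbouring ISRE cores can overlap. The 6 windows below are shown because they belong to members that the results below turn on or set apart: Oas1a and Oas3 of the OAS family, Isg15, Ifitm3, Ifit3 as a gene that passed the test in no comparison, and Irf8 as a gene with no ISRE core. They were chosen after the values were seen. Each is 300 bases, 5′ to 3′ on the strand of the gene, with ISRE cores in capitals in the first 5; on Ifit3 the cores lie on the opposite strand, so that TTTC takes the place of GAAA.
Oas1a, chr5:120907476-120907775, minus strand: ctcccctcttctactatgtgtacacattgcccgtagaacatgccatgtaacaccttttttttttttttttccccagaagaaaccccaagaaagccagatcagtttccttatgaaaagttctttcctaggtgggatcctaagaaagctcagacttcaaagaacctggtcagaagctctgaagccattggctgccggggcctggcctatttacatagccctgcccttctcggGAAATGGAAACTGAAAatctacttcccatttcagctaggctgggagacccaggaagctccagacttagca
Oas3, chr5:120777610-120777909, minus strand: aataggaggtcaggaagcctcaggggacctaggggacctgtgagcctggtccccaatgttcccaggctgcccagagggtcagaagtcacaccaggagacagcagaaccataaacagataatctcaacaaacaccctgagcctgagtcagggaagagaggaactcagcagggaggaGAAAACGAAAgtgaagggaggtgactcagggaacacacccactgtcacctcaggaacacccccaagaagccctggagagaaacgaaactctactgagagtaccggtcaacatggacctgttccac
Isg15, chr4:156200769-156201068, minus strand: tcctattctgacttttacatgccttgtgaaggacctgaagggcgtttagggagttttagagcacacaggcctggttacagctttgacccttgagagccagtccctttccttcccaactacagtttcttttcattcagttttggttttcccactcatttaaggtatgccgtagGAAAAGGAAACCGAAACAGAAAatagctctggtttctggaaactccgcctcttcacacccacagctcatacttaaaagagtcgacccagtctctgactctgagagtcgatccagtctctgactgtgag
Ifitm3, chr7:141010695-141010994, minus strand: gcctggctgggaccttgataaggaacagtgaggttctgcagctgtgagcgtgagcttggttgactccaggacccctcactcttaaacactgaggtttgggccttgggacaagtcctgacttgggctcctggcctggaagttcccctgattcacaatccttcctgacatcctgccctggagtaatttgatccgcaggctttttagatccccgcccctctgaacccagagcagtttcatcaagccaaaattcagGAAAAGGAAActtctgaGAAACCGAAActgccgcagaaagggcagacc
Ifit3, chr19:34583279-34583578, plus strand: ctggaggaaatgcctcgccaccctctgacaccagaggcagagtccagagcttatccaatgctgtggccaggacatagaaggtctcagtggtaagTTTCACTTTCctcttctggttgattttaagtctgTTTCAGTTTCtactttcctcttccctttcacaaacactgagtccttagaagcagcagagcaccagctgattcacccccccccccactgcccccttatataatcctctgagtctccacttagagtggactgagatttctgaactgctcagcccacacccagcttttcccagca
In the window of Irf8 the capitals mark its 2 GAS motifs instead.
Irf8, chr8:120736108-120736407, plus strand: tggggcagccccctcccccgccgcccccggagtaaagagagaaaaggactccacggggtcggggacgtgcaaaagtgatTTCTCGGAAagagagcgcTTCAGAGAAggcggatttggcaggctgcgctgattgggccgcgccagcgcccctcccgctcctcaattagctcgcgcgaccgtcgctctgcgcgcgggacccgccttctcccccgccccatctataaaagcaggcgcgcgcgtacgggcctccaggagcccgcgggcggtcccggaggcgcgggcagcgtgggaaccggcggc
The cores of Isg15 form an unbroken chain of 3 overlapping matches, and those of Oas1a are 2 that overlap. In Ifitm3 both cores lie after the transcription start.

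On the high-fat diet most of the interferon-stimulated genes were lower in TKO than in WT fat. Of the 37, 25 were lower and 0 were higher by the test, with a median log2 change of -0.65 against -0.10 over all tested genes. The largest falls were in Oasl1, Irf8, Oas1a, Oas3 and Zbp1, which lay between -2.17 and -1.64 on the log2 scale. The 12 members that did not pass were Gbp2, Gbp3, Gbp7, Ifi35, Ifi44, Ifit1, Ifit3, Irf3, Isg20, Mx2, Oas2 and Usp18. Among all 15597 genes tested, 31.6% were called lower and 15.2% higher in this comparison, beside 67.6% and 0% of the members. Genes were called at an adjusted p under 0.05 from limma on log2(CPM + 1), fitted over all 12 libraries and adjusted by Benjamini-Hochberg over all genes; a log2 change on this scale understates that of low genes. No member was higher at an unadjusted p under 0.05 in limma, and edgeR and DESeq2 on the whole reads also called 0 higher, with 2 and 0 at an unadjusted p under 0.05. In 25 of 37 members every HFD_TKO library lay below every HFD_WT library, against 38.6% of all genes. Without HFD_WT replicate 3 there were 17 lower members, against 26.4% of all genes, and the median was -0.38. Without HFD_TKO replicate 1 the count was also 17, against 28.0% of all genes; Irf1, Ifih1, Gbp5, Cmpk2, Xaf1, Isg15 and Mx1 lost their call in both, Ifit2 only in the first and Stat2 only in the second. In the same comparison 11 of 12 macrophage markers, 9 of 11 T and NK cell markers and 7 of 7 B and plasma cell markers were lower, and their part in the members' change was not tested.

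**Figure D2:**
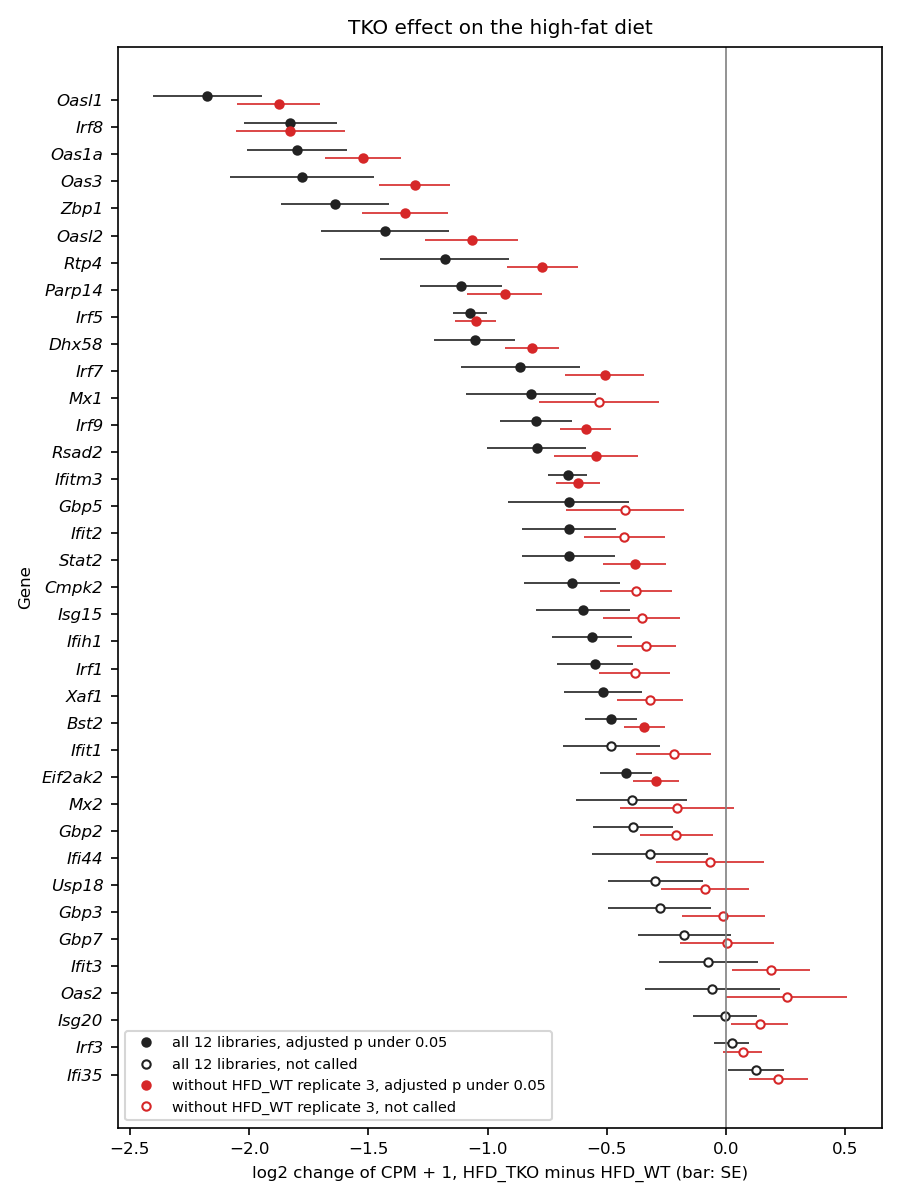
Log2 change of CPM + 1 of each of the 37 genes, HFD_TKO minus HFD_WT, with its SE as a bar, from all 12 libraries (black) and without HFD_WT replicate 3 (red); filled points have an adjusted p under 0.05. Oasl1 is at -2.17 and Ifi35 at 0.13, and fewer points are filled in red (17) than in black (25).

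The transcription factors of the set differed in how they moved. Irf8, which directs the development of monocytes and dendritic cells, measured 11.6, 14.2 and 15.2 CPM in WT and 12.5, 9.68 and 7.6 in TKO mice on normal diet, and 86.7, 81.4 and 84.2 in WT and 31.8, 18.9 and 20 in TKO mice on high-fat diet. The HFD_WT libraries lay far above all 9 others and close to each other, and the HFD_TKO libraries lay above both normal-diet groups. The log2 change of TKO against WT on the high-fat diet was -1.83 (SE 0.19, adjusted p = 1.33e-05). Irf5, a factor of inflammatory cytokine genes in myeloid cells, measured 26, 28.2 and 28.4 CPM in WT and 23.5, 21.3 and 20.5 in TKO mice on normal diet, and 63.9, 67.2 and 68.9 in WT and 30.9, 30.2 and 32.2 in TKO mice on high-fat diet. No pair of its groups overlapped, with ND_TKO the lowest and HFD_WT the highest, and the change on the high-fat diet was -1.07 (SE 0.07, adjusted p = 4.76e-07). These are also the members for which HFD_WT replicate 3 stood out least among the called transcription factors, at 1.0 and 1.05 times the mean of the other 2. Without it the changes were -1.83 (SE 0.23, adjusted p = 0.000108) for Irf8 and -1.05 (SE 0.09, adjusted p = 7.47e-06) for Irf5.

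Irf9 and Stat2, which encode parts of ISGF3, showed a smaller fall. Irf9 measured 23, 23.6 and 24.3 CPM in WT and 19.7, 20.8 and 16 in TKO mice on normal diet, and 34.6, 34.1 and 53.6 in WT and 22.8, 22 and 22.8 in TKO mice on high-fat diet. Its 3 HFD_WT libraries were above all others, replicate 3 well above the other 2, and the other groups lay close together; the change in TKO on the high-fat diet was -0.80 (SE 0.15, adjusted p = 0.00105), and -0.59 without replicate 3. Stat2 stood at 31.6, 30.6 and 28.9 CPM in WT and 27.9, 29.5 and 22 in TKO mice on normal diet, and 38.7, 33.1 and 64.3 in WT and 24.5, 28.9 and 28.6 in TKO mice on high-fat diet. Here the HFD_WT libraries 1 and 2 were only slightly above ND_WT, and the change was -0.66 (SE 0.20, adjusted p = 0.0154). Leaving out HFD_WT replicate 3, it was -0.38 (SE 0.13, adjusted p = 0.038).

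Irf7, itself induced by interferon and the main driver of interferon alpha genes, had a pattern unlike Irf8. Its levels were 37.9, 39.2 and 26.5 CPM in WT and 21.2, 23.1 and 19.8 in TKO mice on normal diet, and 23.6, 22 and 48.7 in WT and 14.4, 18.5 and 14.6 in TKO mice on high-fat diet. In both diets every TKO library was below every WT library, and the highest level outside HFD_WT replicate 3 was in ND_WT. The change on the high-fat diet was -0.86 (SE 0.25, adjusted p = 0.0138), and -0.51 (SE 0.17, adjusted p = 0.0316) without that replicate. Irf1, an activator of interferon and of GBP genes, read 65.2, 69 and 50 CPM in WT and 55.9, 51.8 and 50.8 in TKO mice on normal diet, and 60.4, 46.8 and 75.2 in WT and 36.6, 44.9 and 40.5 in TKO mice on high-fat diet. The HFD_TKO libraries were the 3 lowest of the 12, and the change of -0.55 (SE 0.16, adjusted p = 0.014) became -0.38 (SE 0.15, adjusted p = 0.0633) without HFD_WT replicate 3. Irf3, which is activated by phosphorylation and drives interferon beta, lay between 34.7 and 41.8 CPM in all 12 libraries. The HFD groups overlapped and its change there was 0.02 (SE 0.07, adjusted p = 0.823).

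**Figure D3:**
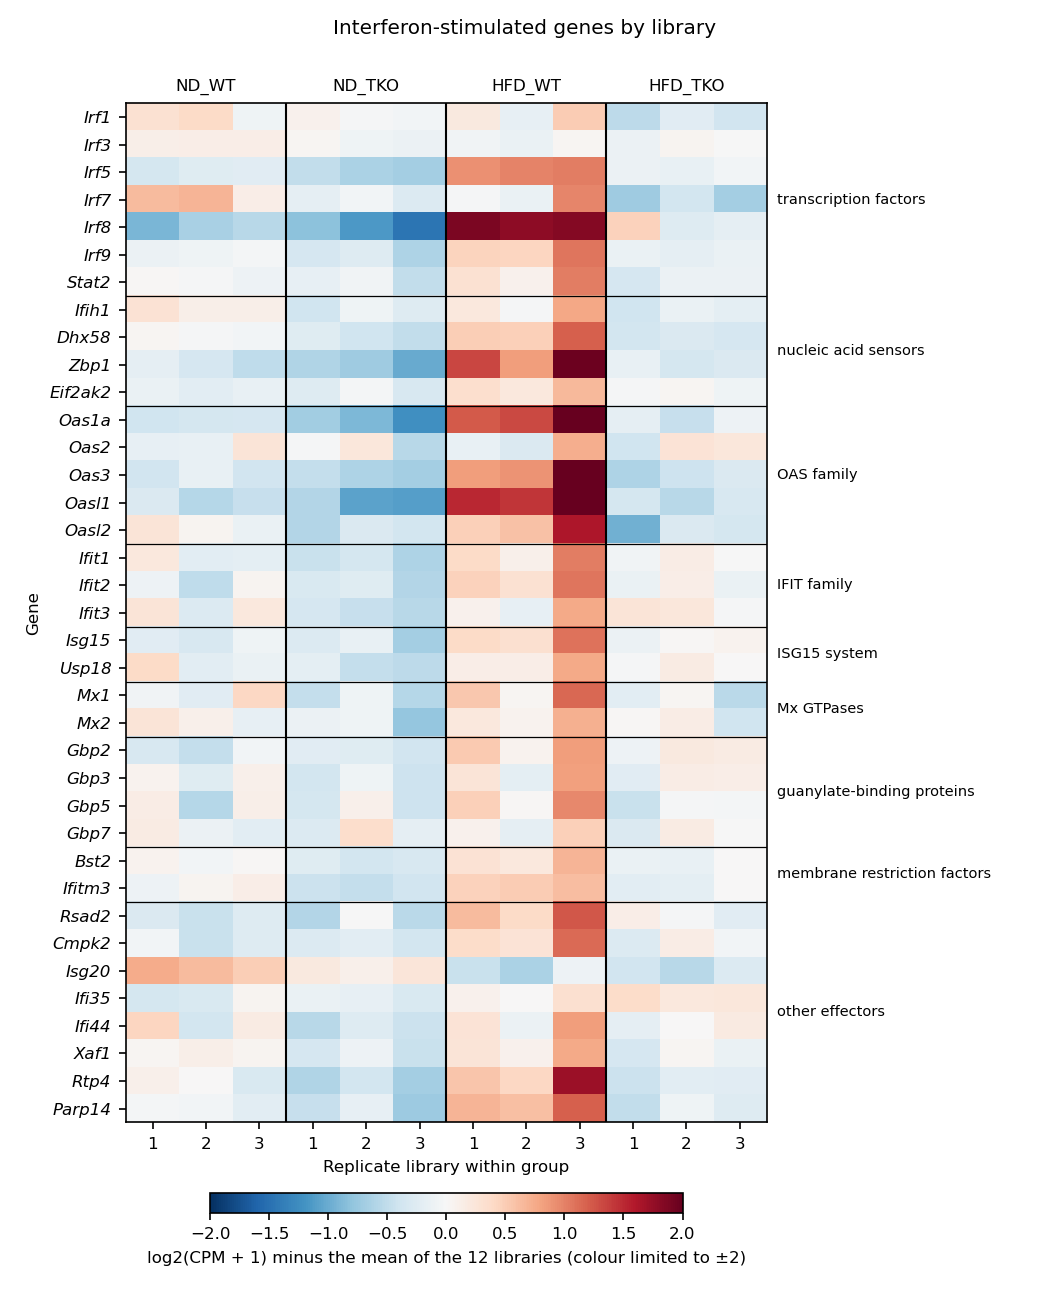
Log2(CPM + 1) of the 37 genes (rows, by role) in the 12 libraries (columns, by group and replicate) minus the mean of that gene over the 12, with colours limited to 2 either way. HFD_WT replicate 3 is the highest library in 33 rows and ND_TKO replicate 3 the lowest in 22, and in Isg20 all 6 normal-diet libraries lie above all 6 high-fat libraries.

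All 4 sensors of foreign nucleic acid were lower in HFD_TKO. Zbp1, a sensor of Z-form nucleic acid that can trigger necroptosis, measured 6.2, 5.49 and 4.75 CPM in WT and 4.38, 3.98 and 3.07 in TKO mice on normal diet, and 19.7, 13.6 and 30.9 in WT and 6.42, 5.42 and 5.71 in TKO mice on high-fat diet. The 3 HFD_WT libraries were spread widely but each was above 13 CPM, and no other library reached 7; its change was -1.64 (SE 0.23, adjusted p = 0.000106), and -1.35 without replicate 3. Dhx58, which encodes LGP2, a regulator of RIG-I and MDA5, changed by -1.05 (SE 0.17, adjusted p = 0.000297), from 14.6 ± 4.79 to 6.29 ± 0.217 CPM (mean ± SD, n = 3). Ifih1, which encodes the long double-stranded RNA sensor MDA5, changed by -0.56 (SE 0.17, adjusted p = 0.0167), and Eif2ak2, the RNA-activated kinase PKR that stops translation, by -0.42 (SE 0.11, adjusted p = 0.0078). In each of these genes the HFD_TKO libraries lay below the HFD_WT libraries without overlap, but in Ifih1 replicate 2 of HFD_WT (32.6 CPM) was less than 3 CPM above the highest HFD_TKO library (30.3 CPM). The change of Ifih1 without HFD_WT replicate 3 was -0.33 (SE 0.12, adjusted p = 0.0523), which did not pass, and that of Dhx58 was -0.81 (SE 0.11, adjusted p = 0.000215).

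The OAS family held 3 of the 5 largest falls. Those of the family that are active enzymes make short oligoadenylates that activate RNase L, while the OAS-like protein Oasl1 is known to repress translation of Irf7. Oasl1 measured 2.24, 1.66 and 1.87 CPM in WT and 1.62, 0.881 and 0.845 in TKO mice on normal diet, and 10.2, 9.6 and 19.4 in WT and 2.09, 1.7 and 2.15 in TKO mice on high-fat diet. Each HFD_WT library was above 9 CPM and no other library reached 2.5, and the change in TKO on the high-fat diet was -2.17 (SE 0.23, adjusted p = 1.23e-05), and -1.88 without HFD_WT replicate 3. Oas1a, whose promoter is shown above, measured 7.63, 7.84 and 7.94 CPM in WT and 6, 5.1 and 3.82 in TKO mice on normal diet, and 25.6, 27.3 and 47.7 in WT and 9.02, 7.26 and 9.5 in TKO mice on high-fat diet. The HFD_WT libraries were again far above the rest, while HFD_TKO replicate 2 lay below all 3 ND_WT libraries and the other 2 HFD_TKO libraries above them; the change was -1.80 (SE 0.21, adjusted p = 2.8e-05), and -1.52 without HFD_WT replicate 3. Oas3 stood at 1.1, 1.48 and 1.1 CPM in WT and 0.97, 0.788 and 0.712 in TKO mice on normal diet, and 3.87, 4.12 and 12.3 in WT and 0.791, 1.06 and 1.23 in TKO mice on high-fat diet. Only HFD_WT left the range of 0.712 to 1.48 CPM, and its replicate 3 was about 3 times the other 2; the change was -1.78 (SE 0.30, adjusted p = 0.000487), and -1.30 (SE 0.15, adjusted p = 5.79e-05) without it. Oasl2 changed by -1.43 (SE 0.27, adjusted p = 0.000976), and by -1.07 without that library. Oas2 measured 10.2, 10.2 and 13.9 CPM in WT and 11.2, 13.6 and 7.47 in TKO mice on normal diet, and 10.2, 9.21 and 19.5 in WT and 8.42, 14.1 and 13.6 in TKO mice on high-fat diet, its groups overlapped in every comparison, and its change was -0.06 (SE 0.28, adjusted p = 0.891). The sources used here do not say how reads shared by several genes or read strand were counted, so that values of near-identical copies in the OAS, IFIT, GBP and Mx families, such as Oas1a and Oas1g or Ifit3 and Ifit3b, may hold reads of each other. Oas1a, Oas3 and Oas2 neighbour each other at chr5:120896256-120907544, chr5:120753098-120777684 and chr5:120730333-120749886 (GRCm38.p6).

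Among the effectors that act on viral RNA, proteins and membranes the falls were smaller. Ifit1, Ifit2 and Ifit3, which bind foreign RNA and block its translation, changed by -0.48, -0.66 and -0.07, and only Ifit2 passed (adjusted p = 0.0168). The change of Ifit2 without HFD_WT replicate 3 was -0.43 (SE 0.17, adjusted p = 0.0694). Ifit3 measured 48.2, 32.9 and 46.8 CPM in WT and 31.7, 28.9 and 27.1 in TKO mice on normal diet, and 42.6, 35.8 and 68.1 in WT and 48.2, 47 and 39.2 in TKO mice on high-fat diet. HFD_TKO overlapped HFD_WT, and all 3 HFD_TKO libraries were above all 3 ND_TKO libraries. Isg15, the ubiquitin-like modifier, measured 4.77, 4.42 and 5.34 CPM in WT and 4.57, 5.1 and 3.2 in TKO mice on normal diet, and 7.77, 7.43 and 13.3 in WT and 5.26, 5.88 and 6.08 in TKO mice on high-fat diet. The HFD_WT libraries were the 3 highest of the 12, and the change of -0.60 (SE 0.20, adjusted p = 0.0262) became -0.35 (SE 0.16, adjusted p = 0.108) without HFD_WT replicate 3. Usp18, which removes ISG15 and damps the receptor, changed by -0.30 (SE 0.20, adjusted p = 0.247). Mx1 and Mx2 encode dynamin-like antiviral GTPases whose alleles in C57BL/6 mice are known to be defective; their changes were -0.82 (SE 0.27, adjusted p = 0.0267) and -0.40 (SE 0.23, adjusted p = 0.184). That of Mx1 was -0.53 (SE 0.25, adjusted p = 0.117) without HFD_WT replicate 3.

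Of 4 guanylate-binding proteins, GTPases that attack intracellular pathogens, only Gbp5 passed on the high-fat diet, at -0.66 (SE 0.25, adjusted p = 0.0496). That call sits at the threshold and ended under 5 of the 8 other settings that kept every library, and without HFD_WT replicate 3 the change was -0.42 (SE 0.25, adjusted p = 0.204). Gbp2, Gbp3 and Gbp7 changed by -0.39, -0.28 and -0.17 with overlapping groups. Both membrane restriction factors were lower: Ifitm3, which blocks entry of enveloped viruses, by -0.66 (SE 0.08, adjusted p = 4.01e-05), and Bst2 (tetherin), which holds budding virus at the cell surface, by -0.48 (SE 0.11, adjusted p = 0.00338). Of the other effectors, Rtp4, a Golgi chaperone, changed by -1.18 (SE 0.27, adjusted p = 0.00356), and Parp14, a mono-ADP-ribosyltransferase, by -1.11 (SE 0.17, adjusted p = 0.000221). Parp14 measured 56.8, 56.6 and 50.3 CPM in WT and 42.4, 52.5 and 35.1 in TKO mice on normal diet, and 94.9, 89.7 and 136 in WT and 41.3, 55 and 48.7 in TKO mice on high-fat diet, and its HFD_WT libraries were all above 89 CPM while no other reached 57. Rsad2 (viperin) and Cmpk2, neighbours on chr12 at chr12:26442743-26456452 and chr12:26469117-26479837 that supply and modify nucleotides against virus polymerases, changed by -0.79 (adjusted p = 0.00808) and -0.65 (0.0202). Xaf1, a promoter of apoptosis, changed by -0.51 (SE 0.16, adjusted p = 0.0219), while Ifi35 at 0.13, Ifi44 at -0.32 and Isg20, whose HFD means were 10.9 ± 2.27 and 10.8 ± 1.12 CPM (SD, n = 3), did not pass. Without HFD_WT replicate 3 Rtp4 changed by -0.77 (SE 0.15, adjusted p = 0.00195), Cmpk2 by -0.38 (SE 0.15, adjusted p = 0.0707) and Xaf1 by -0.32 (SE 0.14, adjusted p = 0.0926), so that the last 2 lost their call.

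**Figure D4:**
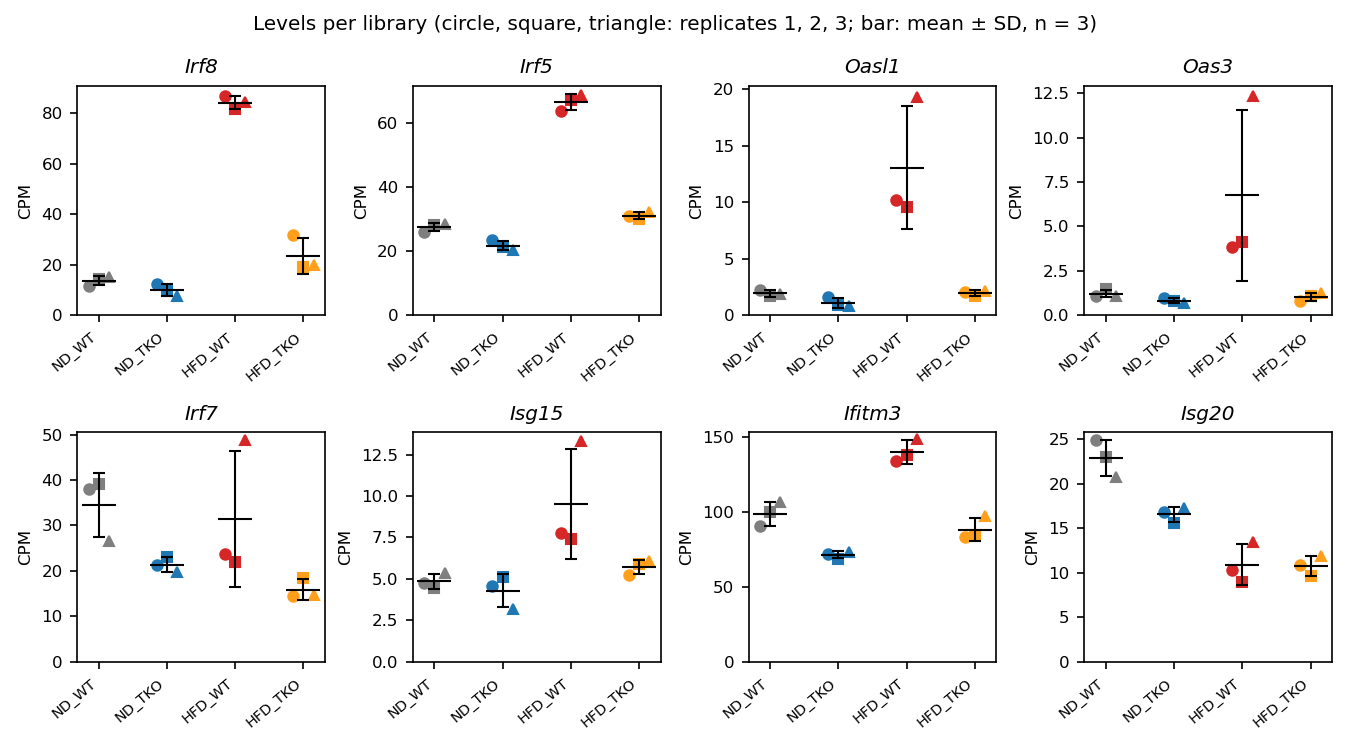
CPM of 8 genes in each library by group, with circle, square and triangle for replicates 1, 2 and 3 and a bar for mean ± SD (n = 3); each panel starts at 0 and has its own scale. Irf8 and Irf5 are tight within HFD_WT, in Oasl1, Oas3, Irf7 and Isg15 replicate 3 of that group lies well above the other 2, and Isg20 is highest in ND_WT.

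On the normal diet 2 members were lower in TKO and 0 higher, with a median log2 change of -0.34 against -0.06 over all genes. In this comparison 3.54% of all genes were called lower and 2.16% higher, beside 5.4% and 0% of the members, so that the count is near the background. Ifitm3 measured 90.1, 99.7 and 106 CPM in WT and 71.5, 68.8 and 73.4 in TKO mice on normal diet, and 134, 137 and 149 in WT and 83.1, 84.2 and 96.8 in TKO mice on high-fat diet. Every TKO library was below every WT library of the same diet, and the change on the normal diet was -0.46 (SE 0.08, adjusted p = 0.0072). Irf5 changed by -0.33 (SE 0.07, adjusted p = 0.0241), a call that ended with TMM scaling, with edgeR, in a fit of the 2 groups alone, and without ND_WT replicate 2, ND_TKO replicate 2 or ND_TKO replicate 3. Of the 37 members, 35 had a negative estimate, 11 of them at an unadjusted p under 0.05 in limma. Shares of all genes by sign or by unadjusted p are not given, here or for the other comparisons. The median over all genes was itself slightly negative. In 18 members the ND_TKO libraries all lay below the ND_WT libraries, against 15.8% of all genes, and in 0 all above (7.96% of all genes). Irf7 was one of these, with -0.65 (SE 0.25, adjusted p = 0.148), as were Isg20 at -0.44 (SE 0.13, adjusted p = 0.0746) and Oas1a at -0.58 (SE 0.21, adjusted p = 0.131). No member had an unadjusted p under 0.05 in the direction of higher levels in limma, edgeR or DESeq2. When HFD_WT replicate 3, which is in neither group but enters the shared estimate of the spread, was left out, 6 members were lower (2.89% of all genes): Irf5, Ifitm3, Irf7, Isg20, Bst2 and Oas1a. The summed macrophage marker CPM, given above, overlapped between the ND groups. All 12 markers had a negative estimate, with a median of -0.34 beside the members' -0.34, and 1 was called lower; their part in the members' change was not tested.

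Most of these genes were higher in WT fat on the high-fat diet than on the normal diet. Of the 37 members 22 were higher and 1 was lower in HFD_WT than in ND_WT, with a median log2 change of 0.56 against 0.13 over all genes; 37.8% of all genes were called higher and 20.3% lower. This comparison shares the HFD_WT libraries with that of the genotypes on the high-fat diet. The 5 largest rises were 2.54 for Irf8 (adjusted p = 5.5e-07), 2.20 for Oasl1 (6.78e-06), 1.92 for Oas1a (1.07e-05), 1.73 for Zbp1 (4.86e-05) and 1.64 for Oas3 (0.000606). In Irf8 the mean rose from 13.7 ± 1.86 to 84.1 ± 2.62 CPM (SD, n = 3). The other transcription factors that rose were Irf5 at 1.25 (SE 0.07, adjusted p = 7.01e-08), Irf9 at 0.73 (SE 0.15, adjusted p = 0.00137) and Stat2 at 0.51 (SE 0.20, adjusted p = 0.0413). The call of Stat2 ended under 6 of the 8 other settings that kept every library (all but the other 2 pseudocounts). Irf1, Irf3 and Irf7 changed by -0.03, -0.18 and -0.20 and did not pass. Isg20, an RNA exonuclease, was the member that fell. It measured 24.9, 23 and 20.8 CPM in WT and 16.8, 15.6 and 17.2 in TKO mice on normal diet, and 10.3, 8.98 and 13.4 in WT and 10.9, 9.6 and 11.8 in TKO mice on high-fat diet. Normal-diet libraries were above high-fat libraries without overlap in both genotypes, and the change in WT was -1.02 (SE 0.13, adjusted p = 4.24e-05). In 20 members the HFD_WT libraries all lay above the ND_WT libraries (41.6% of all genes) and in 2 all below (23.8%). Without HFD_WT replicate 3, 18 members were higher (33.7% of all genes) and 3 lower (18.4%): Stat2, Ifi35, Oasl2 and Ifit1 lost their call, and Irf3 and Irf7 were called lower. The members' median was then 0.36, against 0.12 over all genes, and the 5 largest rises were 2.54 for Irf8, 1.91 for Oasl1, 1.64 for Oas1a, 1.43 for Zbp1 and 1.17 for Oas3. Rtp4 rose by 0.96 with the library and 0.55 without it, and Bst2 by 0.38 and 0.24. Of those that lost their call, Stat2 went to 0.23, Oasl2 from 0.84 to 0.47, Ifit1 from 0.57 to 0.31 and Ifi35 from 0.34 to 0.25. Irf7 then changed by -0.56 (SE 0.17, adjusted p = 0.0159), its HFD_WT replicates 1 and 2 lying below all ND_WT libraries. Macrophage markers were higher in 11 of 12 genes in this comparison.

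In TKO fat the same change of diet moved fewer members past the test, as it did for all genes (16.2% called higher, against 37.8% in WT). Higher in HFD_TKO than in ND_TKO were 5 of 37 (13.5%), which is near the background of 16.2% of all genes. Lower was 1 (2.7%), against 5.90% of all genes. The median log2 change was 0.26 against 0.07 over all genes. The 5 were Irf8 at 1.16 (SE 0.19, adjusted p = 0.00279), Oas1a at 0.69 (SE 0.21, adjusted p = 0.0358), Irf5 at 0.50 (SE 0.07, adjusted p = 0.00163), Ifi35 at 0.47 (SE 0.12, adjusted p = 0.0167) and Ifitm3 at 0.30 (SE 0.08, adjusted p = 0.0228). Ifi35, a leucine zipper protein induced by interferon, measured 22.3, 23 and 30 CPM in WT and 26.2, 25.4 and 23.1 in TKO mice on normal diet, and 30.7, 28.9 and 36.3 in WT and 37.2, 33.3 and 34 in TKO mice on high-fat diet. Its HFD_TKO libraries were above all ND_TKO libraries, and it was 1 of 2 members with a positive estimate for TKO against WT on the high-fat diet. Isg20 was again the lower one, at -0.58 (SE 0.13, adjusted p = 0.0105). In 16 members the HFD_TKO libraries all lay above the ND_TKO libraries (27.7% of all genes) and in 3 all below (11.7%). The count of higher members moved with single libraries. It was 9 (14.3% of all genes) without HFD_WT replicate 3, which is in neither group, when Ifit1, Ifit3, Oasl1 and Zbp1 were added. It was 2 without ND_TKO replicate 3 and 3 without ND_TKO replicate 2, HFD_TKO replicate 1 or HFD_TKO replicate 3. Irf8 and Irf5 kept their call in each of these. Oas1a lost its call without ND_TKO replicate 2 or 3 and without HFD_TKO replicate 1 or 3. Ifitm3 lost its call without ND_TKO replicate 2 or 3 or HFD_TKO replicate 3, and Ifi35 without ND_TKO replicate 3 or HFD_TKO replicate 1. With every library kept, the Oas1a call ended with a pseudocount of 5, no filter, TMM scaling, edgeR and a replicate block. That of Ifitm3 ended with TMM scaling, edgeR and DESeq2.

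**Figure D5:**
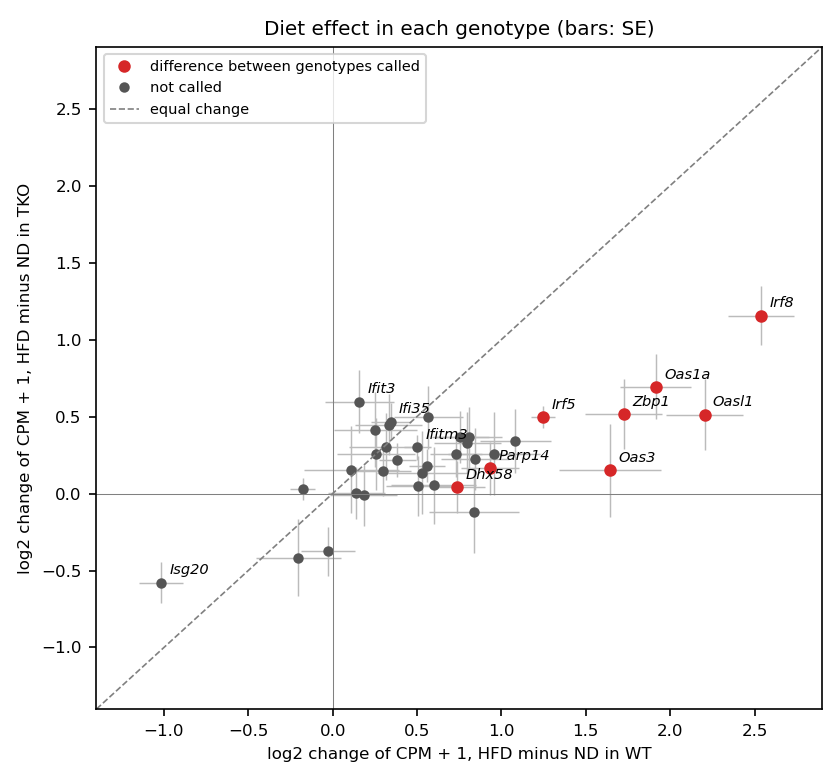
Log2 change of CPM + 1 between diets of the 37 genes in WT (horizontal) and in TKO (vertical), with SE bars; the dashed line marks equal change and red points are the 8 genes with a called difference between the genotypes. The red points lie below the line, with Irf8 at 2.54 and 1.16.

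The test of the difference itself, the TKO effect on the high-fat diet minus that on the normal diet, called 8 members lower and 0 higher, against 18.8% and 9.94% of all genes. The median of the 37 was -0.39, against -0.06 over all genes. That share of the members, 8 of 37 or 21.6%, is near the background. The 8 were Oasl1 at -1.69 (SE 0.32, adjusted p = 0.00236), Oas3 at -1.49 (SE 0.43, adjusted p = 0.0215), Irf8 at -1.38 (SE 0.28, adjusted p = 0.00292), Oas1a at -1.22 (SE 0.30, adjusted p = 0.00935), Zbp1 at -1.21 (SE 0.32, adjusted p = 0.0152), Parp14 at -0.77 (SE 0.24, adjusted p = 0.0322), Irf5 at -0.75 (SE 0.10, adjusted p = 0.000265) and Dhx58 at -0.70 (SE 0.24, adjusted p = 0.0461). In these the gap between genotypes was wider on the high-fat diet, while for the remaining 29 a difference was not shown. The call of Dhx58 ended without a filter, with edgeR, with DESeq2, with a replicate block and in 9 of the 12 fits that left out 1 library (all but those without an HFD_WT library). That of Parp14 ended without a filter and without ND_WT replicate 1 or 3, ND_TKO replicate 1 or 2, HFD_WT replicate 3 or HFD_TKO replicate 1 or 3. In the direction of higher values 1 member, Isg20, had an unadjusted p under 0.05 in limma, and edgeR and DESeq2 each called 1 higher, Irf3. Without HFD_WT replicate 3, Parp14 lost its call, so that 7 members were called lower (15.9% of all genes). Called higher were 2 (8.03% of all genes): Ifit3 at 0.70 (SE 0.22, adjusted p = 0.0387) and Isg20 at 0.58 (SE 0.16, adjusted p = 0.0234). The median was then -0.18, against -0.04 over all genes, Dhx58 changed by -0.46 (SE 0.15, adjusted p = 0.0496) and Parp14 by -0.59 (SE 0.21, adjusted p = 0.0665). Macrophage markers moved in the same comparison, with 10 of 12 called lower and a median of -1.69, as did T and NK markers, with 8 of 11; their part in the members' change was not tested.

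Upstream of the members, few reads fell on the interferon genes that were looked at. Of 10 ligand genes, 7 (Ifnb1, Ifna1, Ifna2, Ifna4, Ifna5, Ifnl2 and Ifnl3) had 0 reads in all 12 libraries and 0 passed the filter; each limit per library is the 0.117 to 0.143 CPM given above. Ifng reached 0.173 CPM, or 4 reads, in HFD_WT replicate 3 and was at 0 reads in 4 libraries. Interferon alpha genes outside these 10 were not looked at. How reads shared by near-identical copies were counted is not stated, so that such reads may be missing here. Of 15 genes of the receptors and the JAK-STAT pathway, 12 were lower in HFD_TKO than in HFD_WT and 0 higher, against 31.6% and 15.2% of all genes. Without HFD_WT replicate 3, 11 were lower, against 26.4% of all genes. Ifnar1 and Ifnar2, which form the type I receptor, changed by -0.61 (SE 0.07, adjusted p = 3.28e-05) and -0.57 (SE 0.08, adjusted p = 9.2e-05), and Ifnar2 was also lower on the normal diet, at -0.44 (SE 0.08, adjusted p = 0.007). Its libraries read 78.4, 75 and 85 CPM in WT and 60.5, 57.3 and 56.8 in TKO mice on normal diet, and 100.2, 100.3 and 114 in WT and 74.8, 65.4 and 70.8 in TKO mice on high-fat diet, with TKO below WT in both diets without overlap. The kinases Jak1 and Tyk2 changed on the high-fat diet by -0.31 (SE 0.07, adjusted p = 0.00437) and -0.58 (SE 0.13, adjusted p = 0.00236), while Ifngr1 of the interferon gamma receptor was at 0.07 (SE 0.11, adjusted p = 0.616) and the inhibitor Socs1 at -0.28 (SE 0.20, adjusted p = 0.263). Of 16 genes of nucleic acid sensing outside the set (sensors, adaptors, kinases and other regulators), 14 were lower in HFD_TKO, against 31.6% of all genes. The count was 12 without HFD_WT replicate 3, against 26.4% of all genes. Cgas, the sensor of cytosolic DNA, and its adaptor Tmem173 (STING) changed by -0.97 (SE 0.14, adjusted p = 0.00011) and -1.24 (SE 0.12, adjusted p = 5.68e-06), Ddx58 (RIG-I) by -0.69 (SE 0.15, adjusted p = 0.00273) and Tbk1 by -0.52 (SE 0.09, adjusted p = 0.000744). Mavs, the adaptor of RIG-I and MDA5, read 60, 56.4 and 52.3 CPM in WT and 48.7, 49.1 and 49.5 in TKO mice on normal diet, and 43.9, 45.1 and 47.3 in WT and 47.9, 51.1 and 50.9 in TKO mice on high-fat diet; its HFD_TKO libraries were all above the HFD_WT libraries by a small margin, its change was 0.13 (SE 0.07, adjusted p = 0.123), and its difference between diets was called, at 0.32 (SE 0.09, adjusted p = 0.0237).

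A further 48 interferon-inducible genes outside the set gave 39 lower and 0 higher in HFD_TKO, against 31.6% and 15.2% of all genes, with a median of -0.83. Without HFD_WT replicate 3, 36 were lower, against 26.4% of all genes, and the median was -0.67. On the normal diet 4 (8.33%) were lower, against 3.54% of all genes. Parp9 and Dtx3l, partners in an ADP-ribosylation and ubiquitin ligase complex, led the fall on the normal diet. Parp9 measured 83.4, 81.8 and 82.1 CPM in WT and 40.9, 48.7 and 44.5 in TKO mice on normal diet, and 91.1, 82.3 and 103 in WT and 51.7, 53.7 and 57.3 in TKO mice on high-fat diet. Every TKO library was below every WT library in both diets, with little spread within groups, and the changes were -0.87 (SE 0.09, adjusted p = 0.000275) on the normal diet and -0.75 (SE 0.09, adjusted p = 2.93e-05) on the high-fat diet. Dtx3l measured 69, 68.1 and 57.8 CPM in WT and 32.8, 38.5 and 31.9 in TKO mice on normal diet, and 62.3, 56 and 71.8 in WT and 31.3, 37.9 and 36.9 in TKO mice on high-fat diet, with changes of -0.90 (SE 0.12, adjusted p = 0.00124) and -0.82 (SE 0.12, adjusted p = 0.00011). Its groups were split by genotype and overlapped between diets. Slfn2, a regulator of lymphocyte quiescence, and Ifi30, a lysosomal thiol reductase of antigen-presenting cells, had the largest falls on the high-fat diet, at -2.37 (SE 0.14, adjusted p = 2.17e-07) and -2.04 (SE 0.14, adjusted p = 5.95e-07). In HFD_WT replicate 3 these 48 genes stood at a median of 1.45 times the mean of the other 2 libraries of its group.

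Calls were spread over members with and without the ISRE core. On the high-fat diet 10 of 15 members with a core in a window were lower in TKO (median -0.56), as were 10 of 14 without (-0.65) and 5 of 8 with no window (-0.94). Of all genes 31.6% were called lower there. With the diet in WT, 10 of 15 with a core and 8 of 14 without were higher, against 37.8% of all genes. Isg15, with its chain of 3 cores, changed by -0.60 on the high-fat diet and Ifit3, with 2, by -0.07, while Irf8, with none, changed by -1.83.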

How the data were processed

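The authors deposited 1 table of CPM per gene, per the file headers, for RNA of eWAT from 12 mice in 4 groups of 3, which the labels state to be biological replicates. Per the submitters' processing notes, STAR 2.7.3a, featureCounts 2.0.0, DESeq2 and the genome build mm10 were used; their settings are not given in the sources used here. The deposited CPM values are whole reads scaled to a common library total, plus a constant of about 0.01 read: with that constant and a tolerance of 0.05 read, 100% of values in each library came out as whole reads. Replicates differed by more than sampling noise. Rows without a gene symbol (3 rows, 0.0313 to 0.0679% of CPM) were left out.

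Groups were compared with limma 3.58.1 (R 4.3.3) on log2(CPM + 1) with a mean-variance trend, 1 mean per group, 8 residual degrees of freedom and no covariate. Genes with at least 0.5 CPM in at least 3 libraries were tested, and p was adjusted by Benjamini-Hochberg over all of them. The alternatives were pseudocounts of 5 and 0.25, no filter, TMM scaling, edgeR 4.0.16 and DESeq2 1.42.0 on the recovered reads, a fit of only the groups compared, a replicate block, and leaving out each library. The procedure was tested on simulated data, with 200 changed genes in 1 comparison and the same level of spread for all genes. The limit on false calls in that test was relaxed after the result of DESeq2 was seen. The real data differ from it, with many more genes called and a library that stands apart.

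The members and all gene lists were chosen with earlier results of these data known. Values per library are given for the transcription factors, for the 5 called members with the largest change in each comparison, and for members called against the majority; other members named with values were chosen after these were seen. Members were ordered by role, and 1 pathway gene outside the set is not reported here. Promoters came from RefSeq and gene positions from RefSeq on GRCm38.p6. The comparisons share libraries with each other. Each limma p sets a difference between group means against a spread between animals that is pooled over the 4 groups and moderated across genes.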

Additional observations from a re-analysis of the deposited data

Results flagged for a closer look

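For 8 members the TKO effect on the high-fat diet differed from that on the normal diet by the test of the difference itself (limma, adjusted over all genes, 3 libraries per group), and each difference was negative. They are 21.6% of the members, against 18.8% of all tested genes called lower, so that the count is near the background. The calls of Parp14 and Dhx58 ended under several settings, given in the report, Parp14 without HFD_WT replicate 3 among them. On the log2(CPM + 1) scale it was -1.69 for Oasl1, -1.49 for Oas3, -1.38 for Irf8, -1.22 for Oas1a, -1.21 for Zbp1, -0.77 for Parp14, -0.75 for Irf5 and -0.70 for Dhx58. In Irf8 and Irf5 the HFD_WT libraries lay close together, whereas in the other 6 HFD_WT replicate 3 was the highest library by a wide margin, and the part of that library was measured only by leaving it out.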

How the results depend on the processing

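No called result reversed under any setting. Some estimates that were not called changed sign without HFD_WT replicate 3, such as Ifit3 for TKO on high-fat diet (-0.07 to 0.19) and Irf7 for the difference between diets (-0.21 to 0.14). The medians over the members moved by less than the spread between replicates under all 99 recalculations. That spread includes HFD_WT replicate 3 itself, so that it is a loose limit for the fit without that library. In that fit the median went from -0.65 to -0.38 for TKO on high-fat diet. It went from 0.56 to 0.36 for the diet in WT and from -0.39 to -0.18 for the difference between diets. On normal diet, members lower in TKO numbered 1 in place of 2 with TMM, with edgeR and in a fit of only the groups compared, where Irf5 was lost. With the diet in WT, higher members numbered 18 in place of 22 with TMM and edgeR and 19 with DESeq2 and only the groups compared, and lower members numbered 2 in place of 1 without a filter, with TMM, edgeR and DESeq2, which added Irf3. With the diet in TKO, higher members numbered 3 in place of 5 with TMM and edgeR and 8 with only the groups compared, and lower members 2 in place of 1 with TMM, DESeq2 and only the groups compared, which added Irf1. For the difference between diets, edgeR and DESeq2 gave 1 higher member in place of 0. Leaving out 1 library at a time, members lower in TKO ran from 1 to 6 on normal diet and from 17 to 28 on high-fat diet, with 0 to 0 higher in both; members higher with the diet ran from 18 to 26 in WT and 2 to 9 in TKO, and lower from 1 to 3 and 1 to 1; the difference between diets gave 6 to 11 lower and 0 to 2 higher. TMM moved the median of all genes by 0.11 for TKO on high-fat diet and by -0.14 for the diet in WT, and the members' medians to -0.54 and 0.42. Of the settings tried for named genes, 983 values kept their side of the threshold, 33 lost their call and 13 gained one. Same-numbered libraries did not consistently deviate together (18 pairs, correlations from -0.50 to 0.56, 5 over 0.1). This check rests on deviations from means of 3 libraries and cannot exclude that the numbers pair libraries. The main fit did not pair them. With a replicate block Gbp5, Stat2, Oas1a and Dhx58 each lost 1 call, and the block left 24 members lower in TKO on high-fat diet. Depth limits the interferon ligands, but no member.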
